A study of Mus musculus with 16 samples.

Results

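Cortical thymic epithelial cells (cTEC) and medullary thymic epithelial cells high in MHC class II (mTEChi) were compared within mice that lack Psmb11, the gene of the thymoproteasome subunit beta5t. The comparison holds 5 of the 16 RNA-seq libraries of the series, 2 of cTEC and 3 of mTEChi, chosen by the population and genotype that the labels give. All 5 carry the psmb11 -/- genotype, so the label that separates them is the sorted population. The same comparison in wild-type (WT) mice, 2 cTEC and 3 mTEChi libraries, shares no library with it and is given beside it. The labels give the strain as C57BL/6-derived BAC and an age of 6 to 8 weeks, from 11 thymi, whereas the extraction protocol describes C57BL/6 mice of 7 days and 14 animals. How many animals stand behind a library is not stated. Cells negative for the leukocyte antigen CD45 and positive for the epithelial antigen EpCAM were sorted into cTEC, which bind antibody to Ly51 but not the lectin UEA1, and medullary cells, which do the opposite. The class II stain that parted mTEChi from mTEClo, the medullary cells low in class II, is not described there. Enpep, the gene of Ly51, and the class II genes are therefore checks of the sort and not findings.

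The thymic cortex and medulla are distinct epithelial compartments in which T cells are selected. Cortical epithelium receives the early progenitors, feeds them with cytokines, chemokines and Notch ligands, and displays self-peptides for positive selection, which the thymoproteasome and the proteases cathepsin L and Prss16 help to make. Medullary epithelium matures under RANK, CD40 and lymphotoxin receptor signals, and its mature cells use the regulators Aire and Fezf2 to express tissue-restricted antigens for deletion of self-reactive cells. Some medullary cells take on programmes of peripheral tissues, among them tuft, cornified, ciliated and endocrine cells, and are called mimetic cells.

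Reads assigned to genes numbered 74148029 and 67810047 in the cTEC KO libraries and 71741533 to 146707262 in mTEChi KO, so 3 counts over a group corresponded to 0.0218 CPM (counts scaled to a common library size) in cTEC and 0.00946 in mTEChi. The mTEChi libraries correlated with each other at r = 0.990 to 0.993 across genes (log2 CPM, a description), the cTEC libraries at 0.904, and cTEC with mTEChi at 0.803 to 0.859. The cTEC libraries thus varied more. After thinning to the lowest total, 17656 and 14879 genes had at least 1 count in cTEC KO and 20682, 20933 and 20940 in mTEChi KO (two-sided exact permutation test, p = 0.1, the smallest that 2 against 3 libraries can give). Library cTEC KO 1 had 30.4% of its reads in no gene and cTEC KO 2 had 2780 tested genes at 0 counts that cTEC KO 1 detected. The targeted gene, Psmb11 (chr14:54625310-54629556, mm10), stood at 2.24 and 0 CPM in cTEC and 0.761, 1.20 and 1.17 CPM in mTEChi, against group means of 161 and 10.3 CPM in WT cTEC and mTEChi. It was not called between the populations (log2 difference 0.12, SE 0.91, adjusted p = 0.916 by edgeR's quasi-likelihood test), and its sign turned with the library left out.

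Of 19444 genes tested by edgeR, 4488 (23.1%) were higher in cTEC and 7172 (36.9%) higher in mTEChi at an adjusted p under 0.05. A second fit, voom with a separate variance for each population, also called 2888 (14.9%) of the genes higher in cTEC and 4982 (25.6%) of those higher in mTEChi. These calls are named below as called by both fits. The CPM of the groups did not overlap for 5627 genes (28.9%) higher in cTEC and 9005 (46.3%) higher in mTEChi. Calls with at least a 2-fold difference were more frequent on the medullary side, 5938 genes in favour of mTEChi and 2254 in favour of cTEC. Calls by both fits with that difference numbered 4604 and 1998. Where group CPM also had to be apart and the larger group mean had to reach 10 CPM, 1781 genes favoured mTEChi and 1757 cTEC. The imbalance was therefore not seen among the genes that met all these limits. The median log2 fold change of all genes, cTEC minus mTEChi, was -0.26. Lists are read against it and against the percentages of genes called given above. Since nothing says that libraries came from separate animals, p-values reflect library-to-library spread, which may be technical. Numbers in parentheses after a gene are its log2 fold change, cTEC minus mTEChi, and its SE, and genes said to be higher, lower or to differ passed the edgeR test. That test takes 1 spread per gene for both groups. The biological coefficient of variation was 1.01 in cTEC KO and 0.113 in mTEChi KO, so its SE and p-values can be too small. In sorted bulk RNA, fewer cells of a type and less RNA per cell cannot be told apart.

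**Figure D1:**
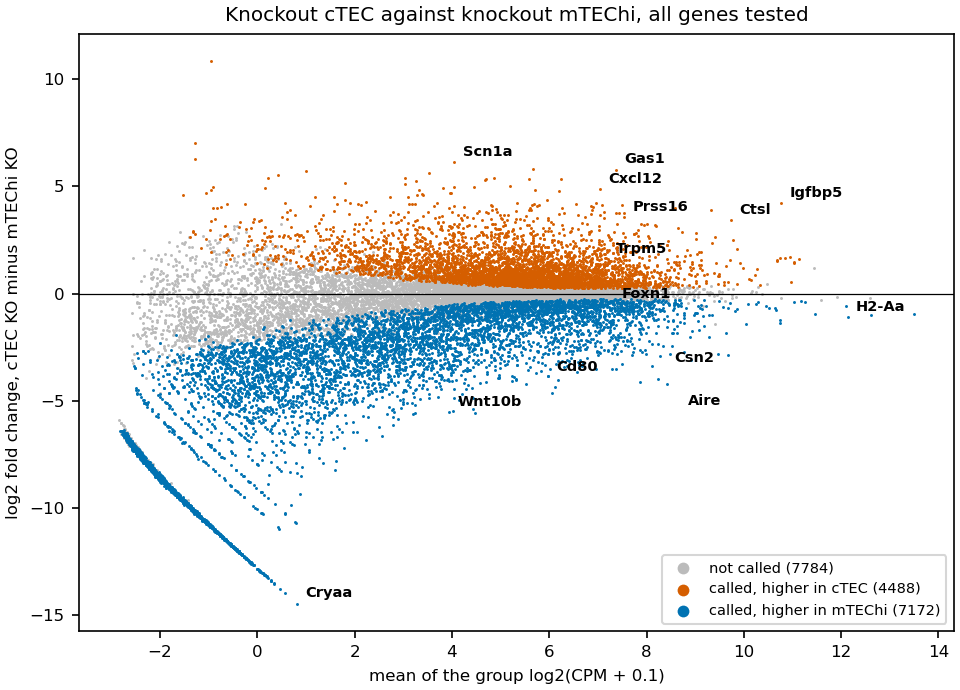
Log2 fold change of each tested gene (cTEC KO minus mTEChi KO, vertical axis) against its mean log2(CPM + 0.1) over the 2 groups (horizontal axis), coloured by the edgeR call. The 4488 genes higher in cTEC lie mostly within a few log2 units of 0, whereas the 7172 genes higher in mTEChi reach far lower, and the streak at the lower left holds genes with 0 counts in both cTEC libraries, whose fitted value depends on a prior count.

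Among genes called by both fits, the largest folds in favour of cTEC were those of Scn1a, Fmod, Gas1, Pmp22, Scarf2, Ccrl1, Prelp and Prss23. Scn1a, a voltage-gated sodium channel gene (chr2:66270782-66440837, mm10), stood at 136 and 133 CPM in cTEC and 1.74, 2.31 and 1.76 CPM in mTEChi. Its difference of 6.15 log2 units (SE 0.15, adjusted p = 8.87e-06) was the largest of the genes that met the naming rule. Gas1, a membrane protein gene known from Hedgehog signalling and growth arrest (chr13:60174405-60177535), stood at 1262 and 1179.8 CPM in cTEC and 26.1, 21.3 and 19.4 CPM in mTEChi (5.78, SE 0.15). Fmod and Prelp, which encode small leucine-rich proteoglycans of the matrix, differed by 5.82 (SE 0.24) and 5.34 (SE 0.35) on the log2 scale. The cTEC libraries themselves were 299.7 and 667 CPM for Prelp, a wider spread than for Gas1. Pmp22, a tetraspan membrane protein gene of myelin and epithelia, Scarf2, a scavenger receptor family gene, and the serine protease gene Prss23 differed by 5.39, 5.36 and 5.27. Genes with the smallest p-values also included Boc, a Hedgehog co-receptor gene, Mdga1, a glycosylphosphatidylinositol-anchored adhesion gene, Rgma, a BMP co-receptor gene, and Ltbp3, which encodes a binding protein of latent TGF-beta. Boc stood at 526 and 554 CPM in cTEC and 28.7, 28.8 and 28.2 CPM in mTEChi, and Mdga1 at 265 and 295 CPM in cTEC and 8.99, 9.59 and 10.3 CPM in mTEChi. A call by both fits and every cTEC library above every mTEChi library were conditions for naming these genes, and not further results.

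Of 15 cortical markers, 11 were higher in cTEC, 10 of them by both fits, and 2 were lower, with a list median of 1.58. The chemokine gene Cxcl12 (chr6:117168535-117181368), which draws progenitors into the thymus, stood at 623 and 803 CPM in cTEC and 27.8, 21.1 and 24.2 CPM in mTEChi, which gave a log2 difference of 4.86 (SE 0.16, adjusted p = 9.75e-06). Ackr4, listed in the table under its older symbol Ccrl1 and encoding a scavenging receptor for CCL19, CCL21 and CCL25, stood at 237 and 374 CPM in cTEC and 5.99, 7.34 and 8.89 CPM in mTEChi (5.34, SE 0.25). Both proteases of cortical peptide selection were higher in cTEC than in mTEChi without the thymoproteasome. Ctsl, the cathepsin L gene (chr13:64363214-64370306), stood at 2693 and 2925 CPM in cTEC and 265, 284 and 235 CPM in mTEChi (3.43, SE 0.12), and Prss16, the thymus-specific serine protease gene (chr13:22002176-22009741), at 454 and 831 CPM in cTEC and 50.2, 52.4 and 58.04 CPM in mTEChi (3.58, SE 0.25). Il7, the growth factor of early thymocytes, was 296 and 294 CPM in cTEC and 75.6, 72.2 and 72.9 CPM in mTEChi (2.003, SE 0.09), and Kitl, stem cell factor, was 108 and 103 CPM in cTEC and 41.6, 47.5 and 50.9 CPM in mTEChi (1.18, SE 0.12). The endocytic receptor gene Ly75 was higher by edgeR (1.11, adjusted p = 0.00267) and missed the threshold by voom (adjusted p = 0.0668).

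Several genes often linked to cortical function were not higher in cTEC. Dll4 (chr2:119325784-119335666), the Notch ligand that commits progenitors to the T lineage, stood at 29.6 and 40.7 CPM in cTEC and 57.9, 60.3 and 55.6 CPM in mTEChi and was lower in cTEC by both fits (-0.72, SE 0.16, adjusted p = 0.00794). Foxn1, the master transcription factor of thymic epithelium (chr11:78358288-78386558), stood at 122 and 147 CPM in cTEC and 186, 186 and 201 CPM in mTEChi (-0.51, adjusted p = 0.00845 by edgeR and 0.0627 by voom). Ccl25, the chemokine ligand of CCR9, stood at 276 and 399 CPM in cTEC and 435, 469 and 494 CPM in mTEChi (-0.46, adjusted p = 0.0449 by edgeR and 0.108 by voom). Its call also ended under DESeq2 size factors and without any 1 of the mTEChi libraries. By edgeR's legacy quasi-likelihood test, and with all 16 libraries and 1 shared spread, 1 cortical marker was called lower in cTEC, against 2 in the main fit. For Dll4, Foxn1 and Ccl25 every mTEChi library lay above both cTEC libraries. The core letters of the Foxn1 motif, GACGC, were found on either strand of 5 of 11 matched promoters of the cortical list, and of 28.5% of all promoters matched to RefSeq. This share describes the list and not the difference between the populations. Tbata and Cd83, named after their values were seen, passed in neither direction. Of the markers used to check the labels, Prss16, Ctsl, Enpep, Ly75 and Cxcl12 followed the cTEC label and Dll4 and Ccl25 did not, whereas Aire, Cd80, Cd40, H2-Aa, Ctss, Ubd and Fezf2 all followed the mTEChi label.

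**Figure D2:**
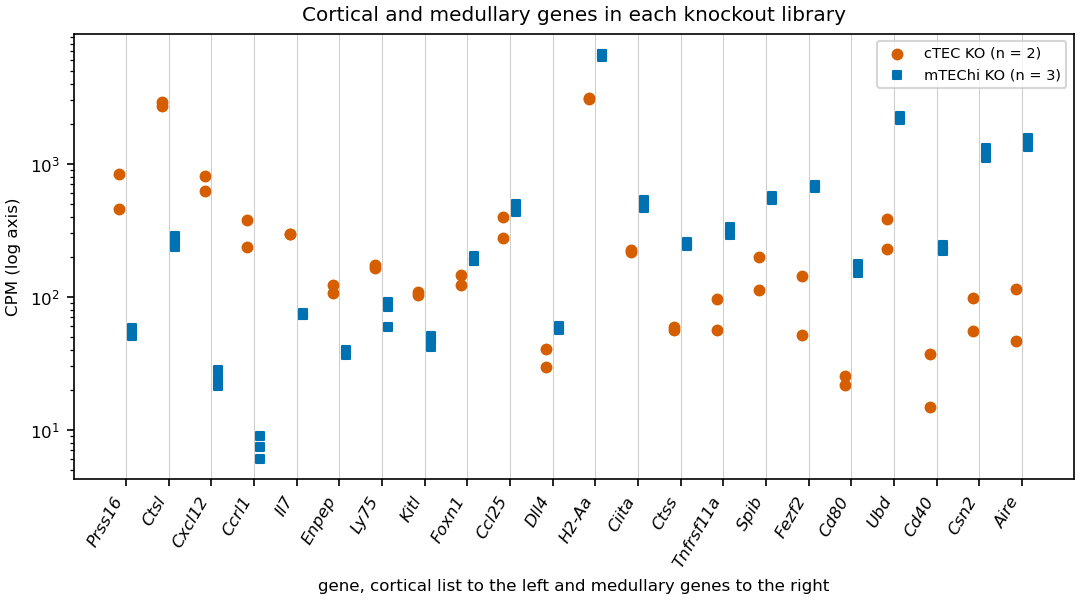
CPM (logarithmic axis) of 22 genes in each knockout library, cTEC as circles and mTEChi as squares. Both cTEC circles lie above all 3 mTEChi squares from Prss16 to Kitl and below them from Foxn1 to Aire, and on this axis the cTEC circles lie far apart for Fezf2, Cd40 and Aire.

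Transcription factors of thymus organogenesis, most of which act in the pharyngeal pouch, were also cortical: 9 of 11 were higher in cTEC (8 by both fits), with a median of 1.17. Hoxa3, a homeobox gene of the pouch, stood at 36.8 and 42.4 CPM in cTEC and 2.72, 1.84 and 1.93 CPM in mTEChi (4.20, SE 0.22), and Pax1, a paired-box gene, at 532 and 582 CPM in cTEC and 84.4, 80.7 and 80.7 CPM in mTEChi (2.76, SE 0.09). The homeobox gene Meis1 and the epithelial stem cell factor gene Trp63 differed by 2.52 (SE 0.10) and 2.27 (SE 0.10). Foxn1 was the member called lower.

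Growth factor signalling genes were mostly on the cortical side. Of 30 genes of the BMP, Wnt, FGF and IGF pathways, 19 were higher in cTEC (17 by both fits) and 5 in mTEChi (5 by both), with a median of 1.26. Igfbp5, an insulin-like growth factor binding protein gene (chr1:72858065-72874865), was the most abundant of them at 7234 and 7881 CPM in cTEC and 414, 389 and 407 CPM in mTEChi (4.23, SE 0.11, adjusted p = 8.87e-06). Igfbp2, another member of that family, differed by 2.93 (SE 0.12). Fgfr2, the receptor for the epithelial growth factors FGF7 and FGF10 (chr7:130162451-130266808), stood at 512 and 519.7 CPM in cTEC and 39.1, 38.1 and 35.03 CPM in mTEChi (3.79, SE 0.10). On the other side, Wnt10b, a Wnt ligand gene (chr15:98771752-98778150), stood at 2.34 and 2.09 CPM in cTEC and 107, 95.9 and 104 CPM in mTEChi (-5.52, SE 0.17). Of 19 Notch pathway genes, 11 were higher in cTEC (9 by both fits) and 6 in mTEChi (3 by both). The ligand gene Jag2 was 513 and 421 CPM in cTEC and 34.4, 39.9 and 35.9 CPM in mTEChi (3.67, SE 0.13) and the ligand gene Dll1 131 and 127 CPM in cTEC and 18.4, 19.1 and 16.8 CPM in mTEChi (2.84, SE 0.11), opposite to Dll4. Hey1, a transcriptional repressor that Notch signals induce, differed by 3.01, and the non-canonical ligand gene Dlk2 by 2.52.

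Matrix and adhesion genes followed the same side, with 15 of 20 collagen, laminin and integrin genes higher in cTEC (12 by both fits), 3 higher in mTEChi and a median of 1.25. Lamb3 and Lama3, chains of the epithelial basement membrane laminin 332, differed by 2.82 (SE 0.09) and 2.19 (SE 0.09). Col18a1 was 558 and 567 CPM in cTEC and 82.6, 80.96 and 80.2 CPM in mTEChi (2.79), and the basement membrane collagen gene Col4a2 differed by 1.88. Markers of fibroblasts and pericytes did not move as a block: 6 of 11 were higher in cTEC and 4 in mTEChi. Dcn, Col3a1 and Lum, which fibroblasts express strongly, stood at 502 and 764 CPM in cTEC and 53.8, 44.9 and 43.03 CPM in mTEChi for Dcn and 328 and 357 CPM in cTEC and 32.3, 21.1 and 27.3 CPM in mTEChi for Col3a1, and Lum differed by 3.10. The summed level of the 11 markers was 1365 and 1617 CPM in cTEC KO and 741 to 757 CPM in mTEChi KO, and none was at 0 in either group. Its part in the matrix result was not tested.

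Interferon-stimulated genes were higher in cTEC in 21 of 24 cases, 18 by both fits, with a median of 1.24. Ifit3, an antiviral tetratricopeptide gene, stood at 362 and 307 CPM in cTEC and 32.2, 38.1 and 36.6 CPM in mTEChi (3.23, SE 0.12, adjusted p = 1.33e-05), and Ifi44 differed by 3.05 (SE 0.10). The guanylate-binding protein gene Gbp3 stood at 194 and 208 CPM in cTEC and 44.2, 42.8 and 43.3 CPM in mTEChi (2.21) and Irf9, a subunit of the interferon-activated factor ISGF3, at 262 and 271 CPM in cTEC and 67.04, 61.3 and 61.9 CPM in mTEChi (2.07). Usp18, which removes ISG15 from proteins, was called lower in cTEC by edgeR (-0.41, adjusted p = 0.0814 by voom) and, like the genes below that carry printed sequence but no rank among the smallest p-values, was named after its values were seen. Rsad2 (0.001) and Socs1 (-0.02) were not called.

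Because these genes lay together on the cortical side, their promoters were searched for the interferon response element, GAAA, any 2 bases and GAAA again, on both strands in the 250 bases before the start (RefSeq, GRCm38.p6). It was present in 10 of 19 matched promoters of the list and in 3.01% of all 16223 matched promoters. Members were listed as interferon-stimulated, so this share describes the list and not the difference between the populations. The stretches below, each 60 bases on the gene's own strand, come from 4 genes of the list, with the matches in capitals. Overlapping matches run together. They read, for Isg15 (chr4:156200850-156200909, minus strand), Ifit1 (chr19:34640779-34640838, plus strand), Oas1a (chr5:120907526-120907585, minus strand) and Gbp3 (chr3:142559980-142560039, plus strand):
Isg15: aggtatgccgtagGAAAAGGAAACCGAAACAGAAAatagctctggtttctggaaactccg
Ifit1: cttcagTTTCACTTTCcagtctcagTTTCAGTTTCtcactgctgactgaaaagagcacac
Oas1a: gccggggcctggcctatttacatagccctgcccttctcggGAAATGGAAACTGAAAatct
Gbp3: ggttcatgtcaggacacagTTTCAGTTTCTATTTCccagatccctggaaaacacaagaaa
The log2 fold changes of these 4 genes were 2.25, 0.95, 1.10 and 2.21, all higher in cTEC by both fits. Rsad2 and Socs1, which were not called, also hold a match. A match is a description of the letters and not of binding.

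Immediate early genes, which respond to growth factors and also to tissue dissociation, were higher in cTEC in 13 of 18 cases (10 by both fits), with none higher in mTEChi. Fos stood at 4162 and 3735 CPM in cTEC and 1106, 1432 and 1307 CPM in mTEChi (1.62, SE 0.14), Egr1 at 2699 and 2959 CPM in cTEC and 808, 1039.8 and 1001 CPM in mTEChi (1.57) and Fosb differed by 1.54. Heat shock chaperone genes were divided, 6 higher in cTEC and 5 in mTEChi of 14 (5 and 3 by both fits). The inducible Hspa1a (1.31) and Dnajb1 (1.32) were cortical, and the mitochondrial chaperonin genes Hspd1 (-1.35) and Hspe1 (-1.02) medullary. Of 17 autophagy genes, 9 were higher in cTEC (6 by both fits) and 1 in mTEChi, led by Ulk1, the initiating kinase (1.52), Map1lc3b, an LC3 gene (1.20), and the lysosomal membrane gene Lamp2 (0.98). Of 14 complement genes, 6 were higher on each side (6 in cTEC and 2 in mTEChi by both fits). The classical pathway genes C1ra and C1s and the inhibitor gene Serping1 were higher in cTEC (3.76, 2.88 and 1.82), and Cfb, factor B of the alternative pathway, was higher in mTEChi (-2.35).

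The medullary regulators and markers stood apart in the other direction: 15 of 20 were higher in mTEChi, 14 by both fits, with a median of -1.97. Aire (chr10:78030022-78043610) stood at 114 and 46.7 CPM in cTEC and 1564, 1334 and 1537 CPM in mTEChi, which gave a log2 difference of -4.20 (SE 0.38, adjusted p = 0.00023). Fezf2 (chr14:12341892-12345865), the other regulator of self-antigens, stood at 142 and 51.7 CPM in cTEC and 676, 662 and 688 CPM in mTEChi (-2.80, SE 0.39). Spib, an Ets factor gene of mature medullary cells, stood at 197 and 112 CPM in cTEC and 575, 541 and 536 CPM in mTEChi (-1.83), and Ubd, which encodes the ubiquitin-like FAT10, at 385 and 227 CPM in cTEC and 2143, 2282 and 2211 CPM in mTEChi (-2.85). These transcripts were nevertheless counted in both cTEC libraries, at 7.73% and 3.16% of the mTEChi mean for Aire, and at a median over the list of 31.3% in cTEC KO 1 and 19.4% in cTEC KO 2. Library cTEC KO 1 was above cTEC KO 2 for 17 of the 20. Krt5 and Krt14, basal keratins counted as medullary in histology, went the other way, with Krt5 at 3246 and 3304 CPM in cTEC and 993, 1122 and 953 CPM in mTEChi (1.68) and Krt14 at 1.47 on the log2 scale.

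Partners of Aire in transcription did not follow it as a group, with 4 of 13 higher in cTEC, 3 in mTEChi and a median of 0.13. Sirt1, the deacetylase that activates Aire, was 123 and 78.8 CPM in cTEC and 617, 587 and 639 CPM in mTEChi (-2.61, SE 0.20), and Dnmt3l was 5.95 and 0 CPM in cTEC and 48.96, 45.8 and 44.8 CPM in mTEChi (-3.94). Parp1 was higher in mTEChi (-1.22) and Deaf1, a relative of Aire with a SAND domain, higher in cTEC (1.21).

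Tissue-restricted antigens were higher in mTEChi in 33 of 38 cases and in cTEC in none, 26 by both fits. Their median log2 fold change was -3.26, or -3.19 with the 3 genes at 0 counts in cTEC set to their bounds. Csn2, the milk protein beta-casein (chr5:87692624-87699421), stood at 97.4 and 55.4 CPM in cTEC and 1311, 1152 and 1107 CPM in mTEChi (-3.96, SE 0.26, adjusted p = 6.43e-05). Csn1s2a, another casein gene, was 0.257 and 0 CPM in cTEC and 45.03, 40.1 and 33.1 CPM in mTEChi, and the apolipoprotein genes Apoa1 and Apoa4 of liver and gut differed by -2.72 (SE 0.16) and -2.83 (SE 0.12). Ins2, an insulin gene, stood at 3.67 and 0 CPM in cTEC and 10.9, 10.7 and 10.1 CPM in mTEChi. In cTEC KO 2, 20 of the 38 genes had 0 counts, against 4 in cTEC KO 1, so the size of these folds rests on the library. The median was -8.73 without cTEC KO 1 and -2.83 without cTEC KO 2, each from a fit that leaves 1 cTEC library.

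Of the mimetic programmes, cornified cell genes and lineage regulators were mostly medullary, whereas tuft cell genes, given below, were not. All 17 cornified cell genes tested were higher in mTEChi by edgeR, and 8 of them by voom, with a median of -2.82. Dsg1a, a desmoglein gene, stood at 73.3 and 40.3 CPM in cTEC and 337, 351 and 355 CPM in mTEChi (-2.61, SE 0.24), Sprr1a, a cornified envelope gene, at 63.4 and 38.1 CPM in cTEC and 162, 185 and 165 CPM in mTEChi (-1.75), and Lor, the loricrin gene, at 1.99 and 0 CPM in cTEC and 26.7, 22.96 and 20.03 CPM in mTEChi. Of 18 lineage regulators, 12 were higher in mTEChi (9 by both fits) and 1 in cTEC. Insm1, of endocrine cells, was 64.1 and 33.4 CPM in cTEC and 324, 319.6 and 325 CPM in mTEChi (-2.72, SE 0.26), and Hnf4g differed by -1.55. Trp73, a p53 relative of ciliated cells, was the member higher in cTEC (1.78, SE 0.18).

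Beyond the lists, the genes with the smallest p-values on the medullary side included Acacb, Crhbp, Fgf21, Icosl, Ncf1, Slc4a8 and Wnt10b. Fgf21, a hormone of liver and fat (chr7:45613890-45615490), stood at 15.5 and 15.5 CPM in cTEC and 319.5, 314 and 301 CPM in mTEChi (-4.33, SE 0.11). Crhbp, which binds corticotropin-releasing hormone, stood at 2.73 and 2.06 CPM in cTEC and 108, 111 and 99.4 CPM in mTEChi (-5.46, SE 0.18), and Acacb, an acetyl-CoA carboxylase gene, at 19.3 and 16.5 CPM in cTEC and 276, 297 and 315 CPM in mTEChi (-4.04). Ncf1, a subunit of the phagocyte NADPH oxidase, and Slc4a8, a bicarbonate transporter gene, differed by -3.51 and -2.65. Of the tested genes, 1853 had 0 counts in both cTEC KO libraries, and 1780 of these were called higher in mTEChi, and 27 of the 1853 reached a mean of 10 CPM there. Cryaa, the lens crystallin alpha-A gene (chr17:31677945-31681724), was the highest, with 0 counts in cTEC and 32.5, 32.4 and 28.1 CPM in mTEChi, at least 1418-fold higher if cTEC is set to 3 counts in all. The bound was 1010.4-fold for Clec4f, a Kupffer cell lectin gene, 866-fold for the phosphatase gene Alppl2, 742-fold for the neuropeptide gene Vip and 739-fold for the nicotinic receptor gene Chrna2. For Gys2 (liver glycogen synthase), Tectb (an inner ear matrix protein) and Grik3 (a glutamate receptor subunit) it was 674-, 664- and 612-fold. These bounds cover counting error only.

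Antigen presentation genes parted by pathway. Of 11 class II genes, 9 were higher in mTEChi, all 9 by both fits, and 1 in cTEC. H2-Aa stood at 3121 and 3089 CPM in cTEC and 6646, 6675 and 6297 CPM in mTEChi (-1.07, SE 0.11) and the class II transactivator gene Ciita at 224 and 218 CPM in cTEC and 464, 483 and 533 CPM in mTEChi (-1.16), differences that the sort itself selects. H2-Eb2, a class II beta chain gene, stood at 194 and 146 CPM in cTEC and 1127, 1112 and 1109.5 CPM in mTEChi (-2.72, SE 0.15). A gap beyond that of H2-Aa was also seen in H2-Oa, which encodes a chain of the peptide-editing inhibitor H2-O (-1.81, SE 0.14). H2-DMa, a chain of the editor itself, was the member higher in cTEC (0.86, adjusted p = 0.000976) and was named after its values were seen. Class I genes did not part as a group: 3 of 13 were higher in cTEC, none by both fits, and 4 in mTEChi, with a median of -0.01. Calr, the calreticulin gene, was lower in cTEC (-0.78), and Tap2, a peptide transporter gene, higher by edgeR alone (0.45).

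Proteasome genes were examined because Psmb11 is gone. Of 10 catalytic and regulatory subunits, 6 were higher in mTEChi (5 by both fits) and 1, Psmb9, an immunoproteasome subunit, in cTEC (0.73, adjusted p = 0.00199, named after its values were seen). The proteasome activator gene Psme2 stood at 97.3 and 97.7 CPM in cTEC and 252, 239 and 220.3 CPM in mTEChi (-1.28, SE 0.10), and Psme3, another activator gene, differed by -1.08. The catalytic subunits Psmb10 and Psmb7 differed by -0.74 and -0.78. Psmb5, which encodes the constitutive counterpart of beta5t (chr14:54614120-54617995), stood at 52.9 and 23.7 CPM in cTEC and 61.8, 59.7 and 52.9 CPM in mTEChi (-0.60, SE 0.30, adjusted p = 0.13), and Psmb8, the immunoproteasome counterpart, at 178 and 151 CPM in cTEC and 198, 209 and 183 CPM in mTEChi (-0.26, adjusted p = 0.091). Neither passed. Of the structural subunits, 4 of 16 in the 20S list (2 by both fits) and 4 of 18 in the 19S list (0 by both fits) were called higher in mTEChi. Neither list exceeded the share of all genes, 36.9% by edgeR and 25.6% by both fits. Psma6 (-0.96) and Psma4 (-0.78) led the 20S list.

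Lysosomal proteases were divided, 7 of 15 higher in cTEC and 8 in mTEChi. Beside Ctsl and Prss16 in the cortex, the medulla held Ctss, cathepsin S (chr3:95526786-95556403), at 56.2 and 59.05 CPM in cTEC and 259, 243 and 239.96 CPM in mTEChi (-2.10, SE 0.10), Ctsh at 78.98 and 84.2 CPM in cTEC and 385, 364 and 333 CPM in mTEChi (-2.14) and the thiol reductase Ifi30 at 78.3 and 82.02 CPM in cTEC and 368, 345 and 323 CPM in mTEChi (-2.11). Of 16 costimulatory and coinhibitory ligands, 10 were higher in mTEChi (8 by both fits) and 2 in cTEC. Cd80 stood at 25.5 and 21.7 CPM in cTEC and 149.99, 174 and 176 CPM in mTEChi (-2.82, SE 0.14), Icosl, the ICOS ligand, at 77.9 and 76.6 CPM in cTEC and 601, 524 and 566 CPM in mTEChi (-2.87) and Cd40 at 36.8 and 14.9 CPM in cTEC and 243, 227 and 219.98 CPM in mTEChi (-3.15). Lgals9, the galectin-9 gene, stood at 400.1 and 456 CPM in cTEC and 109, 115 and 104 CPM in mTEChi (1.97, SE 0.10).

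The receptors and transducers that mature the medulla were higher in mTEChi in 16 of 24 cases (13 by both fits) and in cTEC in 4. Tnfrsf11a, the RANK receptor gene (chr1:105780723-105847981), stood at 95.5 and 56.1 CPM in cTEC and 291, 308 and 334 CPM in mTEChi (-2.04, SE 0.22), Nfkb2 of the non-canonical NF-kB pathway at 253 and 216 CPM in cTEC and 644, 672 and 699 CPM in mTEChi (-1.52), and Birc3, its regulator, differed by -1.37. The receptor genes Ltbr, for lymphotoxin, and Tnfrsf1a, for TNF, were higher in cTEC (1.48 and 1.92). The kappaB pattern GGGA, any 4 bases and CC was found on either strand in 9 of 20 matched promoters of this list and in 19.7% of all matched promoters. That share, too, describes the list and not the difference between the populations. A stretch of 60 bases upstream of the Nfkb2 start holds 2 matches, in capitals (chr19:46304677-46304736, plus strand):
Nfkb2: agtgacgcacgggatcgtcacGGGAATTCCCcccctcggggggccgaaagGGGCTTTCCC
For Nfkbia, which encodes the inhibitor that NF-kB induces, the stretch is chr12:55492648-55492707, minus strand:
Nfkbia: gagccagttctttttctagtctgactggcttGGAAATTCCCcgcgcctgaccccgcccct
Nfkbia was higher in mTEChi (-1.81, both fits), and it was named after its values were seen.

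Of 21 chemokine genes and scavenging receptors, 14 were higher in mTEChi (11 by both fits) and 4 in cTEC. Ccl19, a CCR7 ligand that draws thymocytes into the medulla, stood at 129 and 83.04 CPM in cTEC and 361, 347 and 321 CPM in mTEChi (-1.69, SE 0.19). Ccl20 differed by -1.88 and Cx3cl1, higher in cTEC, by 2.66. Xcl1, which attracts thymic dendritic cells, had 0 counts in cTEC and 8.70, 10.4 and 8.04 CPM in mTEChi, at least 415-fold higher. Thymocyte growth and survival cytokines were divided, 6 of 12 on each side, with Csf1 in cTEC (1.84) beside Il7 and Igf2 in mTEChi (-2.57).

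Cell cycle genes were higher in mTEChi in 22 of 24 cases (18 by both fits) and in cTEC in none, with a median of -1.96. The mitotic kinase partner Ccna2 and the kinase Cdk1 differed by -2.40 and -2.54. Top2a, DNA topoisomerase II alpha, stood at 19.5 and 16.6 CPM in cTEC and 161, 150.2 and 181 CPM in mTEChi (-3.19, SE 0.15), and Bub1, a spindle checkpoint kinase gene, at 0.886 and 0.667 CPM in cTEC and 28.8, 25.7 and 29.4 CPM in mTEChi (-5.17, SE 0.29). Keratins were divided, 6 of 12 higher in cTEC and 5 in mTEChi, with Krt7 cortical (1.26) and Krt20 medullary at 16.3 and 11.1 CPM in cTEC and 114, 119 and 123 CPM in mTEChi (-3.11). Of 17 claudin and junction genes, 9 were higher in mTEChi and 4 in cTEC, among them Cldn7 (-1.34), Ocln (-1.46) and Tjp3 (-1.99) in the medulla and Cldn8 (2.46) in the cortex.

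Tuft cells are chemosensory epithelial cells that use a taste-like cascade with the channel Trpm5, make eicosanoids and release interleukin 25. Of 16 tuft cell genes tested, 11 were higher in cTEC KO, 11 by both fits, and none in mTEChi, with a median of 1.37. Dclk1, a kinase gene that marks tuft cells, stood at 344 and 233 CPM in cTEC and 76.03, 71.3 and 75.00 CPM in mTEChi (1.96, SE 0.16, adjusted p = 0.000165). Alox5ap, which activates 5-lipoxygenase, stood at 69.5 and 43.5 CPM in cTEC and 11.9, 11.4 and 8.90 CPM in mTEChi (2.42, SE 0.24), Ptgs1, the cyclooxygenase 1 gene, at 70.2 and 60.9 CPM in cTEC and 19.6, 21.1 and 22.5 CPM in mTEChi (1.63, SE 0.13), and the tyrosine kinase gene Bmx at 92.2 and 76.9 CPM in cTEC and 26.7, 36.6 and 33.8 CPM in mTEChi (1.39, SE 0.16). Both cTEC libraries were above all mTEChi libraries for these 4 genes. Pou2f3, the tuft master regulator (chr9:43123939-43205755), did not follow: it stood at 66.4 and 43.2 CPM in cTEC and 48.7, 63.4 and 64.3 CPM in mTEChi (-0.10, SE 0.21, adjusted p = 0.7), with its sign turned to 0.17 without cTEC KO 2. The summed level of the list was 1753 and 1180 CPM in cTEC KO against 520, 619 and 587 in mTEChi KO, and cTEC KO 1 was above cTEC KO 2 for 15 of 16 genes. In WT mice the sums were 639 and 536 in cTEC against 587, 572 and 768 in mTEChi, with 2 genes higher in cTEC, 7 in mTEChi and a median of -0.34. Without cTEC KO 1 the KO median of the list was 1.08, and without cTEC KO 2 it was 1.62. Each of these fits leaves 1 cTEC library, whose spread cannot be seen. In the mTEClo KO libraries, scaled with all 16 libraries, the list summed to 2143 to 2992 CPM, above the 1642 and 1224 of cTEC KO on that scale. The part of other cells in this result was not tested.

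**Figure D3:**
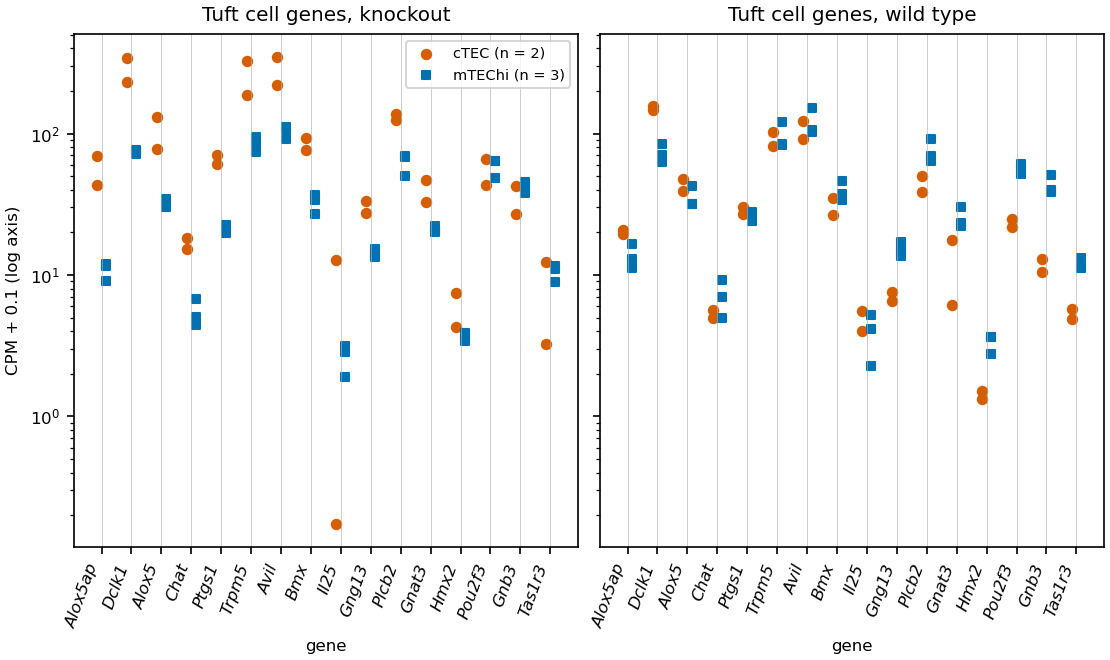
CPM + 0.1 (logarithmic axis) of 16 tuft cell genes in each cTEC (circles) and mTEChi (squares) library, knockout at the left and wild type at the right, in the order of the knockout log2 fold change. In the knockout the circles lie above the squares for most genes from Alox5ap to Hmx2, with Il25 split between the cTEC libraries, and in the wild type they lie above for Alox5ap and Dclk1 and lower for the genes from Gng13 on.

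Markers of blood cells were searched for in both populations. The 15 dendritic cell and macrophage markers summed to 164 and 122 CPM in cTEC KO and to 746 to 764 CPM in mTEChi KO, 12 of them called higher in mTEChi and none in cTEC. Lyz2, the lysozyme gene, was among them at 83.7 and 42.1 CPM in cTEC and 436, 459 and 451 CPM in mTEChi (-2.83), and Mrc1, C1qb and Zbtb46 differed by -2.82, -4.22 and -1.35. B cell markers were lower still, summing to 14.8 and 13.2 CPM against 47.2 to 49.4, with 5 of 6 higher in mTEChi. Thymocyte markers summed to 201 and 253 CPM in cTEC and 235 to 398 CPM in mTEChi, and 3 of 16 were higher in mTEChi, led by Tcf7 (-1.36). Of 8 endothelial markers, 3 were higher in mTEChi (1 by both fits), near the 36.9% of all genes. Of 5 erythroid markers 3 were tested, and all 3 were higher in mTEChi. In each cTEC library 2 of these 3 had 0 counts. No dendritic cell and macrophage marker was at 0 counts over a whole group, but 2 of the 15 had 0 counts in cTEC KO 2. The part of such cells in the class II, chemokine and costimulation results was not tested. The Y-linked genes Ddx3y, Eif2s3y, Kdm5d and Uty were higher in cTEC KO (1.16 to 1.29), and Xist stood at 138 and 693 CPM in cTEC and 911, 1027 and 1382 CPM in mTEChi, not called by edgeR's test (adjusted p = 0.0813) and called higher in mTEChi by voom (adjusted p = 0.0352). Sex is not given in the labels, and its part was not tested.

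Per gene length, as RPKM deposited by the authors, the most abundant transcripts of both populations overlapped. In cTEC KO the 10 highest were B2m, Cd74, H2-Aa, H2-Ab1, Ifitm3, H2-K1, Itm2b, Apoe, Fos and Tmsb4x, and in mTEChi KO Cd74, B2m, H2-Aa, H2-Ab1, Tmsb4x, H2-K1, Ubd, H2-Eb1, Srgn and Eef1a1. B2m, the class I light chain, averaged 4608 and 5851 RPKM in cTEC and mTEChi. Apoe, a lipid carrier (chr7:19696244-19699166), averaged 1397 and 105 RPKM, and stood at 2419 and 2554 CPM in cTEC and 173, 180.3 and 149.9 CPM in mTEChi, which gave a log2 fold change of 3.89 (SE 0.12). Srgn, which encodes the granule proteoglycan serglycin, averaged 201 and 1579.6 RPKM, with a log2 fold change of -2.80.

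The WT comparison called 6326 of 19634 genes (32.2%) higher in cTEC and 9030 (46%) higher in mTEChi. Of the cTEC calls in KO that were tested in both genotypes, 4118 were also WT calls, which is 91.8% of the KO calls and 65.3% of the WT calls. For mTEChi it was 6561 genes, 92.5% of the KO calls and 74.4% of the WT calls. Genes that both fits called in WT had a median log2 fold change of 0.88 in WT and 0.74 in KO on the cTEC side, and -3.43 and -2.29 on the mTEChi side. These genes were chosen by their WT calls, so the smaller KO value is a description. How far it rests on cTEC KO 1, which detected 2780 tested genes at 0 counts in cTEC KO 2, was not tested. Among lists, the median was -6.40 in WT and -3.26 in KO for tissue-restricted antigens, -3.11 and -1.97 for medullary markers and 2.33 and 1.58 for cortical markers. The first of these rested on 1 library. Without cTEC KO 1 the KO median for tissue-restricted antigens was -8.73, beyond the WT value, and the median KO minus WT difference of their members went from 2.46 to -0.24. For medullary markers that median difference went from 0.93 to 0.46.

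**Figure D4:**
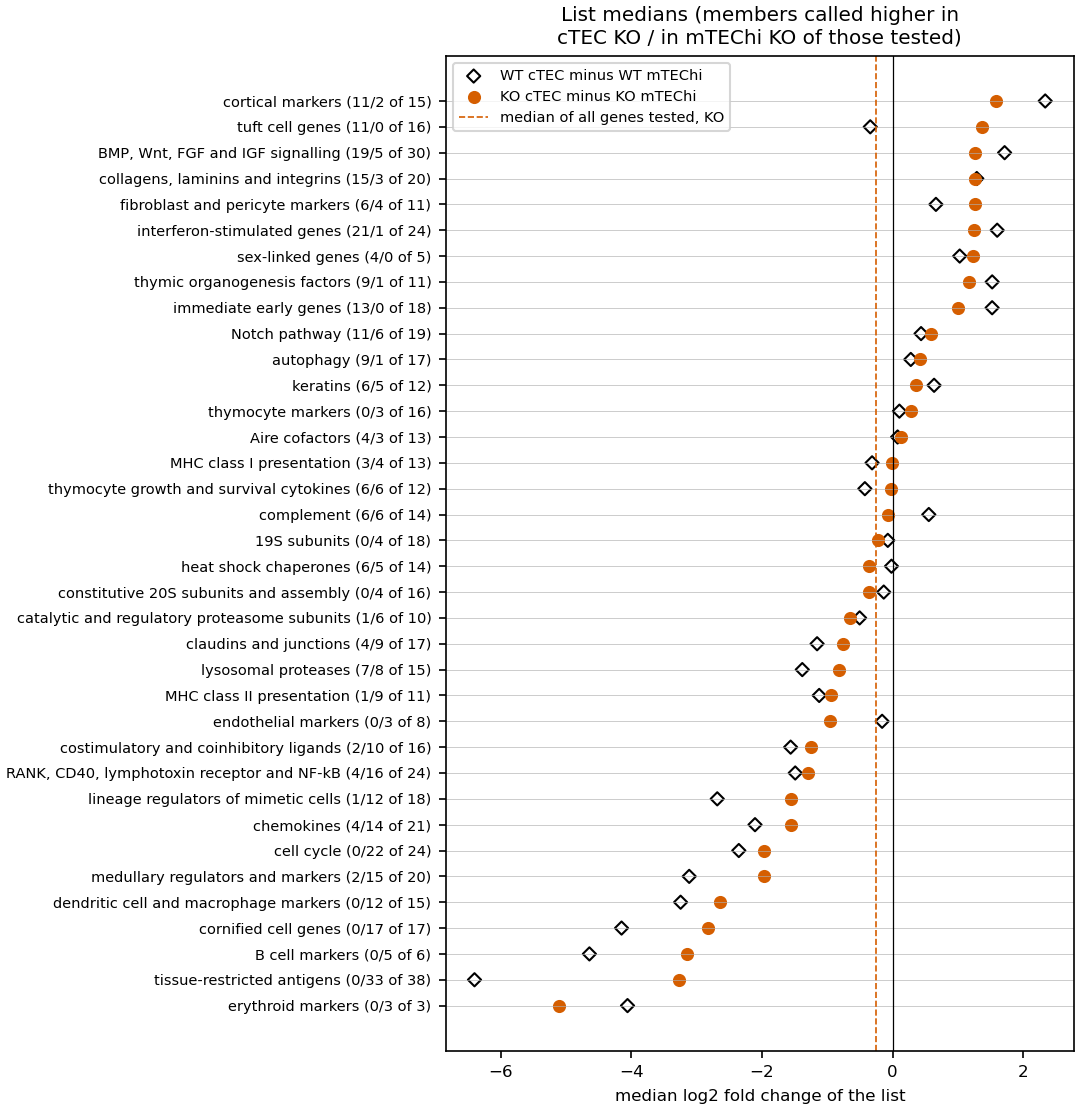
Median log2 fold change of the tested members of each of 36 gene lists, cTEC minus mTEChi, in the knockout (filled circles) and wild type (open diamonds), with the number of members called higher in cTEC KO and in mTEChi KO. The cortical list is at 1.58 in KO and 2.33 in WT, tissue-restricted antigens are at -3.26 (-8.73 without cTEC KO 1) and -6.40, and the tuft list is at 1.37 and -0.34.

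A direct test of the difference, the cTEC minus mTEChi contrast in KO minus that in WT, called 880 of 19990 genes (4.4%) more positive in KO and 263 (1.32%) more negative. Voom also called 167 and 5 of these. Of the 880, 827 were medullary by call in WT, and of the 263, 215 were cortical. Lists had 14 of 16 tuft genes more positive (4 by both fits), 10 of 20 medullary markers (7 by both), 10 of 38 tissue-restricted antigens (6 by both) and, more negative, 7 of 15 cortical markers (1 by both). The cortical marker called by both was Enpep, a gene of the sort. S100g, a calcium-binding protein gene among the tissue-restricted antigens, stood at 16.3 and 13.6 CPM in cTEC and 86.1, 92.8 and 87.8 CPM in mTEChi in KO, and the contrast was -2.57 in KO and -6.67 in WT (adjusted p of the difference = 1.59e-05). Aire itself had contrasts of -4.20 and -6.97 (difference 2.76, adjusted p = 0.00106), with 12.6 and 1582 CPM in WT cTEC and mTEChi. The calls changed with the cTEC KO libraries: the test gave 6198 calls without cTEC KO 1 and 3754 without cTEC KO 2, where the lone library was taken to vary like the other groups, and 528 to 781 without any 1 of the other libraries. For the tuft list it called 7 of 16 without cTEC WT 2 and 11 to 16 without any 1 of the others.

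**Figure D5:**
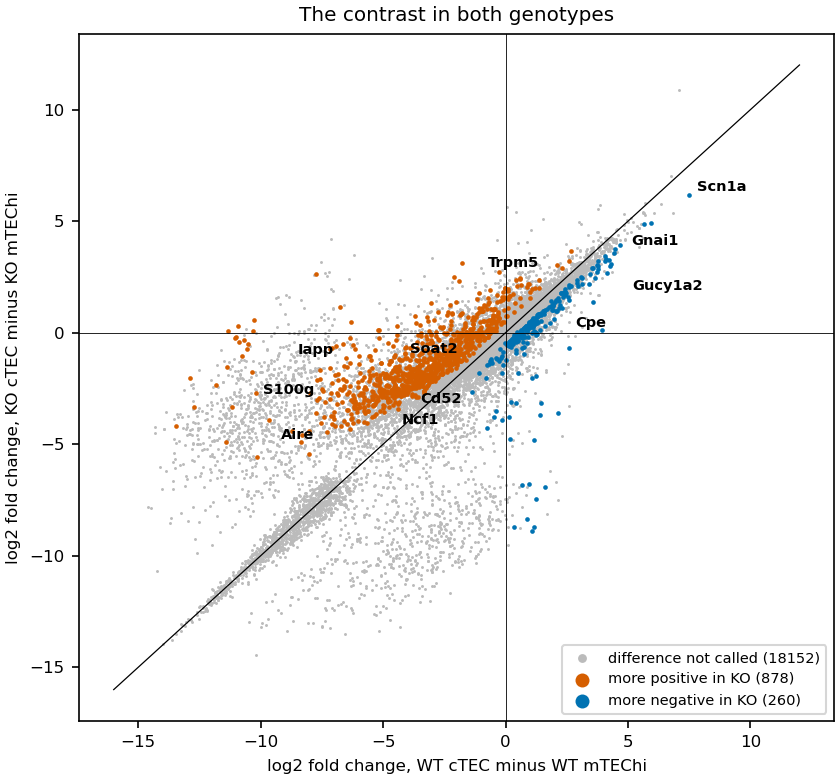
Log2 fold change, cTEC minus mTEChi, of genes tested in both genotypes, in the knockout (vertical axis) against wild type (horizontal axis), with the line of equality and the edgeR call of the difference in colour. Most genes called more positive in KO lie in the lower left, medullary in both genotypes but less so in KO, and S100g, Iapp and Soat2 lie well above the line.

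Genes that changed sides between the genotypes were few. There were 48 called higher in cTEC in KO and in mTEChi in WT, 22 of them by both fits in KO, and the difference was called for 42. Members of the tuft list were Gng13 (1.10 in KO, -1.09 in WT), Plcb2 (1.07 and -0.74) and Gnat3 (0.93 and -1.07), all parts of the taste cascade. Others were Il17rb, a subunit gene of the interleukin 25 receptor (1.07 and -0.48), Pik3r5, a phosphoinositide 3-kinase subunit gene (1.36 and -0.67), Car7, a carbonic anhydrase gene (1.89 and -0.64), and Rsph4a, a radial spoke gene (1.23 and -2.29). These genes were chosen after their values were seen, and each was called by both fits in KO. In the other direction 19 genes changed sides, 5 of them by both fits in KO and 14 with a called difference, and most had low levels, such as Insl5 at 0 counts in cTEC KO and 0.329, 0.372 and 0.428 CPM in mTEChi KO.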

How the data were processed

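Sorted thymic epithelial cells were measured by RNA-seq with a kit that does not keep strand, so antisense and overlapping genes cannot be told apart. The authors deposited whole-number counts of reads per gene symbol and a table of RPKM values. The tools named in the submitters' processing notes are HTSeq 0.5.4p1 and CASAVA 1.8.2, with mm10 as the genome, and the aligner is not given in the sources used here. Rows that name no gene were removed; they held 19.8% to 30.4% of reads as reads in no gene in the KO libraries. The 2 cTEC and 3 mTEChi KO libraries were fitted alone with edgeR 4.0.16 in R 4.3.3 (TMM scaling, filterByExpr, quasi-likelihood F test, Benjamini-Hochberg adjustment over all genes tested, threshold 0.05), as were the WT libraries, and the KO minus WT difference in 10 libraries. CPM are TMM-scaled within each comparison. All log2 fold changes are cTEC minus mTEChi, and SE is the fold divided by the root of F. The second fit was voom with sample weights by population in limma 3.58.1. DESeq2 1.42.0 served as an alternative. The scripts were tested on simulated data with less spread in cTEC KO than was found here. That test does not show how the fits behave at the spread of these libraries. RPKM, deposited by the authors, served only to rank genes by level.

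The members and the 36 gene lists were chosen with earlier results of these data known, so no list is independent evidence. Named genes are 29 chosen genes, the 8 largest folds and 8 smallest p-values per direction (called by both fits, at least 2-fold, no overlap, at least 10 CPM in the higher group), the 4 list members with the smallest p-values, the 5 smallest p-values per direction for the difference, and the 10 highest RPKM per group. Other genes are said to be named after their values were seen, and 1 gene that the rule names is not reported here. Promoters were matched by symbol to RefSeq (GRCm38.p6), 1 per gene. Replicates of a group differed by more than counting noise, so none was merged.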

Additional observations from a re-analysis of the deposited data

Results flagged for a closer look

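By edgeR's test of the interaction and by voom, the cTEC minus mTEChi log2 fold change itself was higher in KO than in WT for 167 genes and lower for 5, Enpep among the latter. The 8 described here are those with the smallest p-values, up to 5 per direction, among the ones with a log2 difference of at least 1 in size, a mean of at least 10 CPM in a group and an established symbol. S100g, named above, differed by 4.11 (adjusted p = 1.59e-05 by edgeR and 0.00834 by voom). Iapp, the islet hormone amylin, stood at 15.2 and 13.97 CPM in cTEC and 42.9, 42.3 and 41.7 CPM in mTEChi in KO and at group means of 0.416 and 36.95 CPM in WT cTEC and mTEChi, and the contrasts differed by 4.94 (adjusted p = 4.99e-05 and 0.00872). Soat2, a cholesterol-esterifying enzyme gene, differed by 2.76, Ncf1 by 2.13 and the leukocyte surface gene Cd52, at 44.97 and 42.1 CPM in cTEC and 249, 268 and 263 CPM in mTEChi in KO, by 2.10. In all 5 the mTEChi level exceeded the cTEC level in both genotypes, and the gap was smaller in KO. The other 3 had a smaller cortical excess in KO. Gucy1a2, a subunit gene of soluble guanylate cyclase, stood at 110.2 and 63.04 CPM in cTEC and 12.1, 13.01 and 15.8 CPM in mTEChi in KO and 219.7 and 12.3 CPM in WT cTEC and mTEChi, a difference of -1.49 (adjusted p = 0.00726 and 0.0258). The peptide-processing enzyme gene Cpe differed by -1.35 and the G protein gene Gnai1 by -1.25. With groups of 2 and 3 libraries, no single library could be tested as an outlier.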

How the results depend on the processing

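The KO comparison gave 11660 calls. With the replicate number as a block it gave 6939, of which 3892 were higher in mTEChi, against 7172 without the block. The numbers are shared by only 2 pairs, whose deviations correlated at 0.02 across genes. That value cannot decide the pairing, since it compares 1 difference per population and the cTEC libraries varied more. Whether equal numbers mean shared animals is not known, and the main fit took no block. Voom called 2888 genes higher in cTEC, against 4488. Of the 11660 calls, 7870 were kept in the same direction by voom, 6823 with the block, and 8987 by edgeR's legacy route, an alternative chosen after seeing the data. Leaving out 1 mTEChi library gave 9269 to 9457 calls, 3129 to 3240 higher in cTEC and 6135 to 6289 higher in mTEChi. Fits without a cTEC library leave 1 cTEC library, whose spread cannot be seen, so their calls are not counted here. The median of all genes was -0.54 without cTEC KO 1 and -0.19 without cTEC KO 2.

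The KO minus WT difference depended most on the fit. Against 1143 calls, 880 more positive and 263 more negative, DESeq2's Wald test gave 3052 (2092 and 960), voom 177 (172 and 5), all 16 libraries with 1 shared spread 2385 (1558 and 827), and the replicate block 175 (173 and 2). Without the filter on low counts 175 were more negative. Leaving out 1 library gave 528 to 6198 calls, 414 to 2582 more positive and 68 to 3685 more negative. The cause was not tested. Of the WT counts, each stayed within 1.5 times its value under every alternative run.

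Of 196 named genes, between 177 (voom) and 194 (no filter) kept their direction and side of the threshold. The sign turned for Psmb11 by DESeq2's Wald test (-0.0159) and by voom (-2.99), and its value ran from -9.66 without cTEC KO 1 to 1.09 without cTEC KO 2. H2-K1 ran from -0.378 without cTEC KO 1 to 0.0182 without cTEC KO 2, and Pou2f3 from -0.447 to 0.17 without the same libraries. With all 5 libraries edgeR's quasi-likelihood test called none of the 3, and DESeq2's Wald test called H2-K1 (-0.227). At these depths the 2 cTEC KO libraries varied more than those of mTEChi KO: the biological coefficient of variation was 1.01 in cTEC KO and 0.113 in mTEChi KO. The part of that spread in the changes above was not tested.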
